A study of Mus musculus with 4 samples.

Results

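Transcripts of red cells and platelets were followed in purified CD4 T cells from mouse spleen. The genes were given by name, by a rule that sets no threshold on their values but was written with earlier results of these data known, as 4 genes of the red cell lineage and 4 of platelets. A gene was measured where a probe set of the array was annotated to it alone, which gave 7 of the 8 genes, namely the erythroid genes Slc4a1, Alas2 and Klf1 and the platelet genes Ppbp, Pf4, Itga2b and Gp9, among 19937 genes measured in this way. The remaining erythroid gene was not analysed here. Each of the 7 genes had 1 such probe set.

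The study hybridized total RNA to 4 Affymetrix arrays, 2 from wild-type (WT) mice and 2 from mice labelled Ifitm-/-, called IfitmF-/- below because the whole family of interferon-inducible transmembrane genes is deleted. All mice were adults of 6 to 8 weeks, no treatment was given, and the knockout was described as on a C57BL/6 background. Per the study, each array held cells pooled from 2 mice, and the replicates were separate purifications. The spleen suspension had been treated with ammonium chloride, which lyses red cells, and the resting CD4 T cells were then isolated by magnetic negative selection, in which antibodies remove the other cells. The deleted gene Ifitm3 had log2 intensities of 9.26 and 8.91 in WT and of 4.61 and 4.36 in IfitmF-/- cells (replicates 1 and 2, the order used throughout). Xist, the RNA of the inactive X chromosome in females, was at 11.32 and 11.25 in WT but at 4.86 and 4.43 in IfitmF-/- cells, whereas the Y-linked gene Uty was at 3.97 and 4.09 against 9.01 and 8.83. Sex and genotype therefore cannot be told apart in any comparison below. Markers of CD4 T cells were abundant on every array, with Cd3e at 12.07 to 12.15 and Cd3g at 11.65 to 12.29.

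Mouse spleen makes red cells as well as storing them. Erythroblasts, the nucleated precursors, build the membrane skeleton, take up iron and synthesize heme while they divide, then lose the nucleus to become reticulocytes, which still carry RNA. Platelets are fragments of megakaryocytes, which the mouse spleen also holds, and they too carry RNA without a nucleus. Both lineages use the transcription factor GATA1. In bulk RNA, fewer cells of a type and less RNA per cell cannot be told apart.

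Promoters of the measured genes are shown here because they belong to separate programs in related lineages and because the 2 erythroid promoters come from genes that differed in pattern across the arrays. RefSeq windows (GRCm38.p6) were found for 6 of the 7 genes, and the 250 bases before each start were searched on both strands for a GATA motif (GATA preceded by A or T and followed by A or G), a CACC box (CCNCNCCC) and an ETS motif (GGAA followed by GT or by AT). Below are the 100 bases before each start, 5′ to 3′ on the strand of the gene, with the GATA match in capitals for the erythroid genes and the ETS match in capitals for the platelet genes. Alas2 lies at chrX:150547317-150547416 (+), Klf1 at chr8:84901882-84901981 (+), Ppbp at chr5:90768418-90768517 (+), Pf4 at chr5:90772335-90772434 (+), Itga2b at chr11:102469884-102469983 (-) and Gp9 at chr6:87777970-87778069 (+).
Alas2: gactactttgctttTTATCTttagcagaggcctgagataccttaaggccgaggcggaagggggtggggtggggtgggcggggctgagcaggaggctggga
Klf1: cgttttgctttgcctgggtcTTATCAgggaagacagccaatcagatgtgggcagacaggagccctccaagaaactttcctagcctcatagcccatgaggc
Ppbp: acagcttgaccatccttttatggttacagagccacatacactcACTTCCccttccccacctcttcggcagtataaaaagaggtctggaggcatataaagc
Pf4: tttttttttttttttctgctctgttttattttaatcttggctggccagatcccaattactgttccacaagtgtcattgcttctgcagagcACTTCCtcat
Itga2b: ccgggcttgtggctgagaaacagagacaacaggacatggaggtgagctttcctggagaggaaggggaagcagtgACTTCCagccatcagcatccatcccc
Gp9: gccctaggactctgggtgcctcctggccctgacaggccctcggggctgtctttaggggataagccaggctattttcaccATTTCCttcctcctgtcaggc

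A GATA match lay in the windows of Alas2 and Klf1 and an ETS match in those of all 4 platelet genes, while no window held both. Of 32851 windows of this length, 26.5% held a GATA match, 31.9% an ETS match and 45.9% a CACC box. The CACC box matched at 4 places in the Alas2 window, some of which overlap, and once each in those of Itga2b and Gp9. These are matches of letters and not measured binding sites.

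Slc4a1, which encodes the anion exchanger band 3 of the red cell membrane, had log2 intensities of 9.24 and 11.19 in WT and of 12.01 and 11.78 in IfitmF-/- cells. WT replicate 1 was the lowest of the arrays, and both IfitmF-/- arrays lay above both WT arrays. The WT arrays differed from each other by 1.95, a 3.87-fold difference, which was more than the 1.68 between the genotype means (10.21 ± 1.38 in WT and 11.90 ± 0.16 in IfitmF-/-, SD, n = 2; 95% interval of the difference -0.11 to 3.47; adjusted p = 0.209). Among 19937 genes only 10 had a larger excess of WT replicate 2 over WT replicate 1.

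Klf1, the master transcription factor of erythroid cells, showed the same order of arrays, with 6.26 and 7.25 in WT and 7.70 and 7.45 in IfitmF-/- cells. Klf1 was dim on WT replicate 1, where 49.8% of probe sets were dimmer, and on the other arrays 64.6% to 70.6% were. The genotype means differed by 0.82 (95% interval -0.12 to 1.77; adjusted p = 0.236) and the WT arrays by 0.99.

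Alas2, which encodes the erythroid enzyme of the first and rate-limiting step of heme synthesis, followed another order. It was at 10.85 and 9.98 in WT and at 10.36 and 10.47 in IfitmF-/- cells, so that WT replicate 1 was the highest array and the IfitmF-/- arrays lay between the WT arrays. The genotype means differed by -0.0035 (95% interval -0.82 to 0.81; adjusted p = 0.996), and the interval still allows a change of up to 0.82 either way. Alas2 is X-linked, and the sex of the mice differed between the genotypes. WT replicate 1 thus held the least Slc4a1 and Klf1 RNA and the most Alas2 RNA of the 4 arrays.

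Ppbp and Pf4 encode CXC chemokines stored in platelet granules. Ppbp was at 11.38 and 10.67 in WT and at 11.80 and 12.90 in IfitmF-/- cells, without overlap between the genotypes. The difference of 1.32 (2.50-fold, 95% interval 0.13 to 2.52) was past the threshold of limma before adjustment for the number of probe sets and not after it (adjusted p = 0.157). Pf4 was at 8.31 and 7.85 in WT and at 8.13 and 9.97 in IfitmF-/- cells. Here the genotypes overlapped, since IfitmF-/- replicate 1 lay between the WT arrays, and IfitmF-/- replicate 2 stood 1.84 above it, a 3.58-fold difference between arrays of the same genotype. No other gene of the 19937 had a larger excess of IfitmF-/- replicate 2 over replicate 1. The genotype means of Pf4 differed by 0.97 (95% interval -0.76 to 2.70; adjusted p = 0.413).

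Itga2b and Gp9 encode platelet surface receptors, the αIIb chain of the fibrinogen receptor and a subunit of the von Willebrand factor receptor. Gp9 was at 8.55 and 8.00 in WT and at 8.93 and 10.40 in IfitmF-/- cells. The genotypes did not overlap, and the difference of their means was 1.39 (2.62-fold, 95% interval -0.04 to 2.83; adjusted p = 0.199), against 1.47 between the IfitmF-/- arrays. Itga2b was at 7.74 and 7.63 in WT and at 7.72 and 8.60 in IfitmF-/- cells, so that only IfitmF-/- replicate 2 lay above WT (difference of means 0.47, 95% interval -0.35 to 1.30; adjusted p = 0.404). IfitmF-/- replicate 2 was the highest and WT replicate 2 the lowest array for each of the 4 platelet genes.

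**Figure D1:**
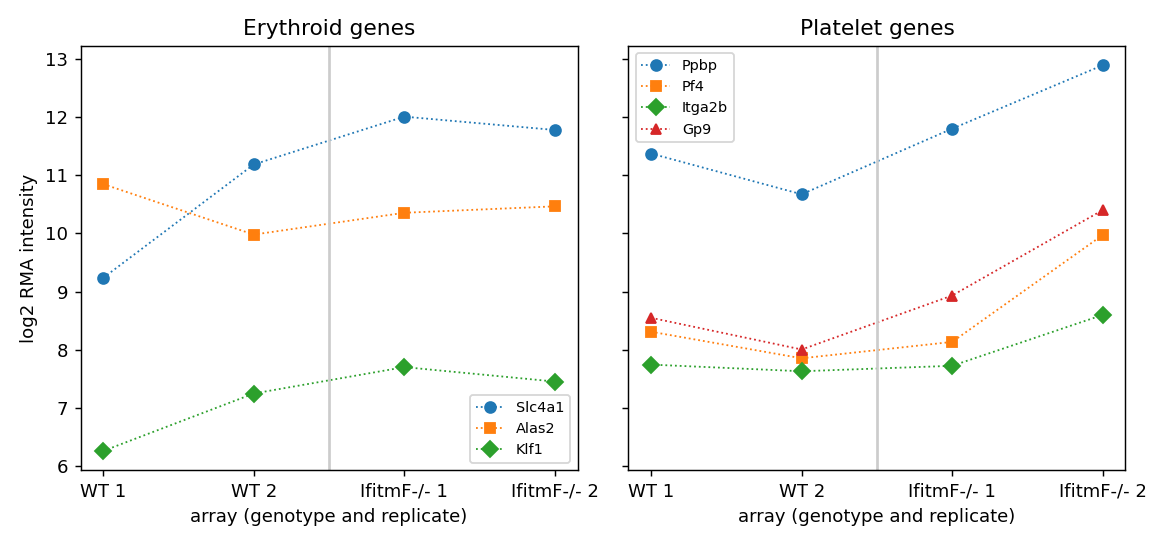
Log2 RMA intensity (y axis) of 3 erythroid genes (left) and 4 platelet genes (right) on the WT and IfitmF-/- arrays (x axis), with a symbol for each array and dotted lines that only join the values of a gene. Slc4a1 and Klf1 are lowest and Alas2 is highest on WT replicate 1, and all 4 platelet genes are highest on IfitmF-/- replicate 2.

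None of the 3 erythroid and none of the 4 platelet genes was called by limma at an adjusted p under 0.05, where 8.43% of all 34760 probe sets were called, with IfitmF-/- above WT in 4.48% and below it in 3.95%. At an unadjusted limma p under 0.05, 0 of 3 and 1 of 4 passed (Ppbp), against 25.8% of all genes. The methods' t-test passed 0 of either group. Of all 34760 probe sets it passed 6811 before adjustment and only 4 after it. This test is the unpaired one that the study names for its statistics in general. To find differential genes on these arrays the study instead used moderated statistics (eBayes) with adjusted p, as the limma test here does. With both IfitmF-/- arrays above both WT arrays were 2 of 3 erythroid genes (Slc4a1 and Klf1) and 2 of 4 platelet genes (Ppbp and Gp9), as were 27.9% of all genes. The mean log2 level of the 3 erythroid genes was 8.78 and 9.47 in WT and 10.02 and 9.90 in IfitmF-/- cells. That of the 4 platelet genes was 8.99 and 8.54 in WT and 9.15 and 10.47 in IfitmF-/- cells.

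Most of the differences were smaller without the array that stood apart. Without WT replicate 1, the difference of Slc4a1 went from 1.68 to 0.71 and that of Klf1 from 0.82 to 0.33, while that of Alas2 became 0.43. Without WT replicate 2, the difference was 2.66 for Slc4a1 (adjusted p = 0.11), 1.32 for Klf1 (adjusted p = 0.116) and -0.44 for Alas2 (adjusted p = 0.243). Without IfitmF-/- replicate 2, the difference of Ppbp went from 1.32 to 0.78, of Gp9 from 1.39 to 0.66, of Pf4 from 0.97 to 0.05 and of Itga2b from 0.47 to 0.04. Without IfitmF-/- replicate 1, the 4 platelet genes differed by 0.91 to 2.13 (adjusted p = 0.0731 to 0.099). In these settings the 1 array left in a genotype was assumed to vary like those of the other genotype. No probe set of the whole array was called in any of them, so they cannot decide whether these genes would be called.

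**Figure D2:**
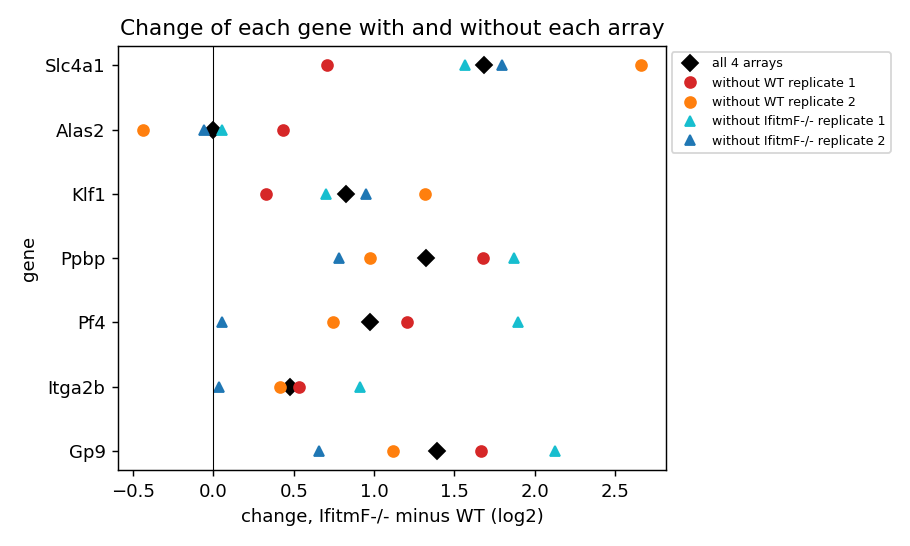
Difference of IfitmF-/- minus WT on the log2 scale (x axis) for each gene (y axis), on all 4 arrays (black) and without each array in turn (colors). Slc4a1 and Klf1 move most with the WT arrays, and Pf4 and Itga2b come to lie near 0 without IfitmF-/- replicate 2.

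The wider programs of both lineages were then read from lists of other genes, and the genes named are those of smallest p in each list unless stated. Of 70 measured genes in 5 red cell lists, 4 rose and 0 fell, which is 5.71% against 4.96% of all genes called higher and 3.61% called lower. At an unadjusted p under 0.05, 23 of 70 were higher and 2 lower, against 14.3% and 11.5% of all genes. WT replicate 1 was the lowest array for 51 of the 70, compared with 21.6% of all genes. The median difference was 0.52 over the 70 genes and -0.02 over all genes.

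The membrane and skeleton genes showed this most clearly. WT replicate 1 was lowest for 16 of 17 measured, the median excess of WT replicate 2 over it was 1.43, and for 12 of 17 the WT arrays differed by more than the genotype means, as for 36.2% of all genes. Rhag, the Rh-associated glycoprotein gene, chosen after its values were seen, was at 5.05 and 7.94 in WT and 9.001 and 8.79 in IfitmF-/- cells, a 7.44-fold difference between the WT arrays (genotype difference 2.40, adjusted p = 0.22). None of the 17 was called. The actin-binding dematin gene Dmtn was at 7.22 and 7.67 in WT and at 8.02 and 8.15 in IfitmF-/- cells (adjusted p = 0.107). The amino acid transporter gene Slc43a1 differed by 1.78 (adjusted p = 0.11). Glycophorin C, encoded by Gypc and made by many cell types, had a difference of -0.50 (adjusted p = 0.111) and was lowest on IfitmF-/- replicate 2. The median difference of the list, 1.24, was 0.42 without WT replicate 1 and 2.199 without WT replicate 2.

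In heme synthesis and iron supply, 2 of 17 genes rose and 0 fell. The share called higher was 11.8%, against 4.96% of all genes, and rests on these 2 genes. Fech, which encodes the enzyme that inserts iron into the porphyrin ring in the last step of heme synthesis, was at 8.43 and 8.31 in WT and at 8.96 and 8.94 in IfitmF-/- cells, a 1.49-fold rise (adjusted p = 0.0356). Slc25a37, the mitochondrial iron importer mitoferrin of erythroblasts, went from 9.29 and 9.63 to 10.25 and 10.27, a 1.74-fold rise (adjusted p = 0.044). For both genes the WT arrays lay closer together than the genotypes did. Ppox, the enzyme before Fech in the pathway, differed by 0.59 and missed the threshold (adjusted p = 0.0714). In this list WT replicate 1 was lowest for 14 of 17, but Fech was lowest on WT replicate 2.

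Among transcription factors of the lineage 0 of 12 were called. The X-linked gene Gata1, the master regulator shared by erythroblasts and megakaryocytes, was at 6.33 and 7.09 in WT and at 7.71 and 7.80 in IfitmF-/- cells (adjusted p = 0.0958). Nfe2, which acts in both lineages, differed by 0.49 (adjusted p = 0.0923). Bcl11a, which represses fetal globin genes and is also a B cell factor, had a difference of -0.31 (adjusted p = 0.139) and was highest on WT replicate 1. Of 11 globin genes 5 had a probe set of their own, and 0 were called. Hbq1b, a θ-globin gene, differed by 1.13 (adjusted p = 0.207) with WT replicate 1 lowest, Hbq1a was dim at 4.72 to 5.03, and the embryonic gene Hbb-y was dim at 4.26 to 4.83.

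Of 19 measured genes of late maturation, 2 rose and 0 fell, with 10.5% called higher against 4.96% of all genes. That share rests on these 2 genes. WT replicate 1 was the lowest array for 12 and the highest for 5, a share of 26.3% that is close to the 22.2% of all genes. Mgst3, which encodes a microsomal glutathione transferase, went from 6.39 and 7.05 in WT to 8.20 and 8.38 in IfitmF-/- cells, a 2.97-fold rise (adjusted p = 0.0379). Isg20, an exonuclease gene that interferon also induces in other cells, rose 1.56-fold (adjusted p = 0.0316), with 9.71 and 9.72 in WT. Trim10, a ubiquitin ligase gene of terminal erythroid differentiation, differed by 1.26 (adjusted p = 0.072). The 5 genes highest on WT replicate 1, listed after their values were seen, were Bpgm, Mkrn1, Ube2o, Bnip3l and Tent5c. Bpgm, which makes the 2,3-bisphosphoglycerate that loosens oxygen from hemoglobin, was at 9.26 and 8.56 in WT and at 7.99 and 8.69 in IfitmF-/- cells (adjusted p = 0.374). Ube2o, a ubiquitin enzyme that clears proteins from reticulocytes, was at 9.37 and 8.98 in WT and 9.001 and 9.30 in IfitmF-/- cells.

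Genes of cell division, measured as a list of their own, were also low on WT replicate 1. It was the lowest array for 8 of 9, and their mean level was 7.66 and 8.73 in WT and 8.83 and 8.67 in IfitmF-/- cells. Mki67, the proliferation marker, was at 8.49 and 10.38 in WT and 10.68 and 10.40 in IfitmF-/- cells, and the cyclin gene Ccnb2 at 8.29 and 9.61 against 10.03 and 9.89; 0 of 9 were called. B cell markers were highest on WT replicate 1 for 9 of 9 genes, with a mean level of 9.16 there and 7.54 to 7.92 on the other arrays. Among them Cd74 was at 12.04 on WT replicate 1 and at 9.92 to 10.76 elsewhere, and Cd79b at 10.67 against 9.24 to 9.87. The part of B cell content in the red cell values was not tested.

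In the 3 platelet lists 3 of 38 measured genes rose and 0 fell, which is 7.89% against 4.96% of all genes. IfitmF-/- replicate 2 was the highest array for 30 of 38 and WT replicate 2 the lowest for 31 of 38, compared with 26.3% and 23.0% of all genes. For 25 of 38 the IfitmF-/- arrays differed from each other by more than the genotype means did, as for 42.0% of all genes. The median difference over the 38 genes was 0.57. Without IfitmF-/- replicate 2 the median went from 0.48 to 0.18 for adhesion receptors, from 0.45 to 0.06 for granule contents and from 0.65 to 0.16 for signaling and skeleton. Without IfitmF-/- replicate 1 these medians were 0.73, 0.84 and 1.02.

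Receptors for adhesion gave 0 calls among 8. Itgb3, which encodes the β3 partner of αIIb, was at 9.12 and 8.70 in WT and 9.31 and 9.72 in IfitmF-/- cells (adjusted p = 0.17). Itga2, a collagen receptor chain gene, differed by 0.57 (adjusted p = 0.199), and Pear1, an endothelial and platelet receptor gene, by -0.34 (adjusted p = 0.104) as the only gene of this list below 0.

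Of 13 genes for granule contents 1 rose, which is 7.69% against 4.96% of all genes. F13a1, which encodes the clot-stabilizing factor XIII A chain and is made by monocytes as well, went from 6.19 and 6.22 in WT to 6.81 and 7.04 in IfitmF-/- cells, a 1.65-fold rise (adjusted p = 0.0361). Mmrn1, encoding multimerin that binds factor V in platelets, was at 4.23 and 4.01 in WT and at 5.88 and 7.61 in IfitmF-/- cells. Its difference of 2.63 was the widest of the list and missed the threshold (adjusted p = 0.0758). F5, coding for factor V itself, differed by 0.84 (adjusted p = 0.111).

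Of 17 genes for signaling and skeleton 2 rose, which is 11.8% against 4.96% of all genes and rests on these 2 genes. Tbxa2r, the thromboxane A2 receptor gene, which T cells express as well, went from 7.38 and 7.34 in WT to 8.82 and 8.76 in IfitmF-/- cells, a 2.70-fold rise (adjusted p = 0.013). Tbxa2r did not share the order of the platelet arrays, as IfitmF-/- replicate 2 was not its highest. F2rl3, which encodes a thrombin receptor of platelets, went from 6.47 and 6.28 to 7.07 and 6.97, a 1.57-fold rise (adjusted p = 0.0397), and IfitmF-/- replicate 2 was again not the highest. Rgs18, a regulator of G protein signaling in platelets, had the order of Ppbp, with 8.16 and 7.64 in WT and 8.57 and 9.78 in IfitmF-/- cells (adjusted p = 0.173). The study itself lists Tbxa2r among genes it picked on these arrays.

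Macrophage markers also stood high on IfitmF-/- replicate 2. For the red pulp macrophages of the spleen, which engulf aged red cells, the mean level over 9 genes was 10.33 and 9.46 in WT and 9.31 and 10.51 in IfitmF-/- cells, and 7 of 9 genes were highest on IfitmF-/- replicate 2. C1qb was at 11.57 and 10.92 in WT and 10.80 and 11.92 in IfitmF-/- cells, and C1qc at 11.30 and 10.51 against 10.14 and 11.44. Markers of monocytes and macrophages in general had 6 of 9 genes highest on that array. On WT replicate 1 and IfitmF-/- replicate 2, the mean was 10.33 and 10.51 for the red pulp markers and 8.99 and 10.47 for the 4 platelet genes. The part of macrophages in the platelet values was not tested. Of the remaining markers, 0 of 2 CD8, 0 of 9 B cell, 0 of 9 monocyte and macrophage and 0 of 9 red pulp macrophage genes were called. Calls were made for 2 of 9 NK cell genes (Nkg7 and Eomes, both lower), although 6 of these 9 had a difference above 0. Also called were 1 of 10 neutrophil genes (Retnlg, higher) and 1 of 5 plasma cell genes (Xbp1, lower). Of 8 CD4 T cell genes 3 were called (Cd3d and Cd3g higher, Cd28 lower). Of all genes, 8.57% were called in either direction.

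**Figure D3:**
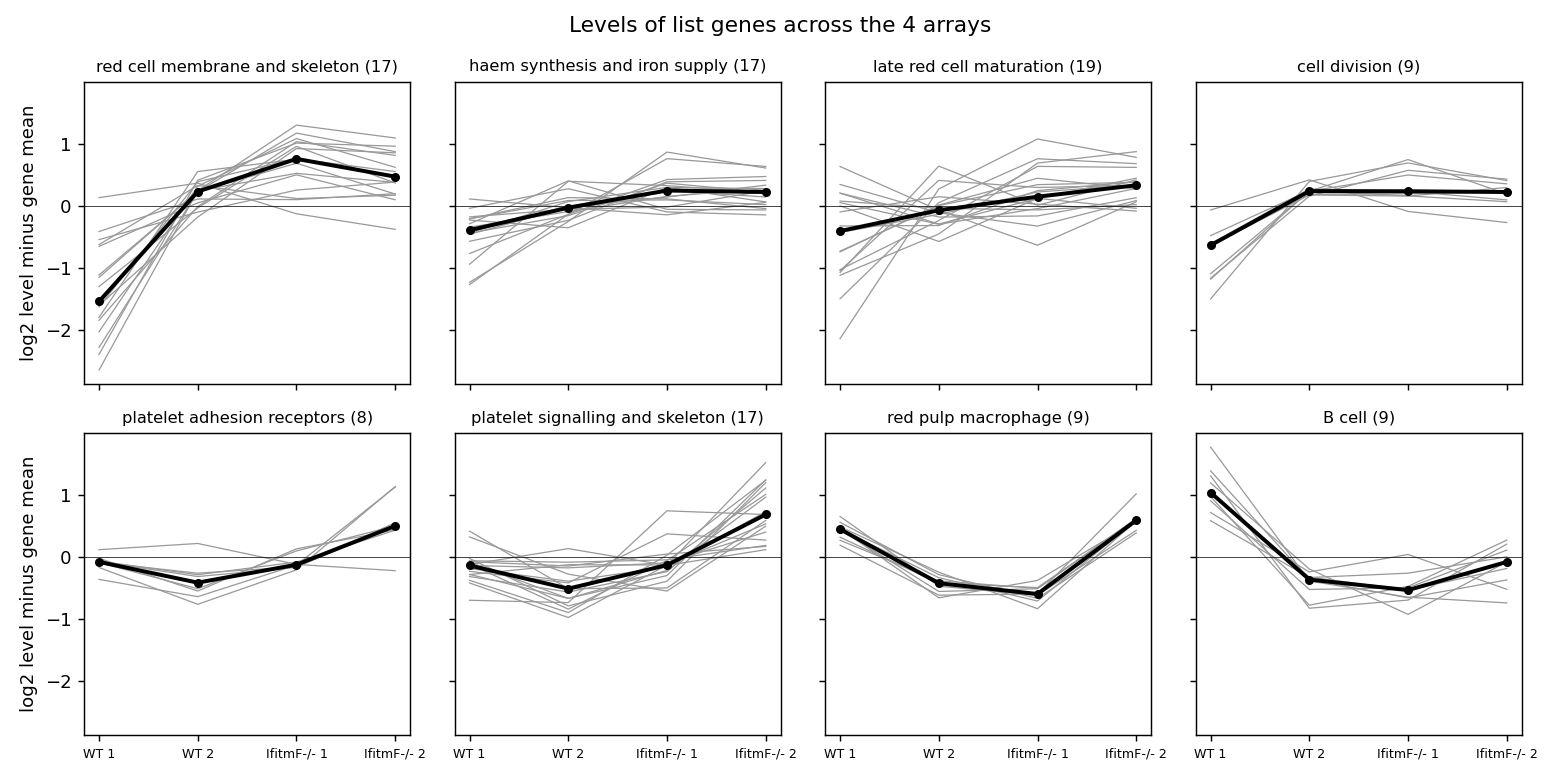
Log2 level of each gene minus its own mean over the 4 arrays (y axis) on each array (x axis) for 8 gene lists, with the number measured in brackets; grey lines are genes and the black line is the median. The red cell membrane and cell division genes are low on WT replicate 1, where the B cell genes are high, and the platelet genes are highest on IfitmF-/- replicate 2.

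The 20 genes of largest excess of replicate 2 were then taken in each genotype. Of the 20 genes with the largest excess of WT replicate 2 over WT replicate 1, 12 were red cell genes of the lists, Slc4a1 included, and 0 were platelet genes. Of the 20 with the largest excess of IfitmF-/- replicate 2 over replicate 1, 6 were platelet genes, Pf4 and Gp9 included, and 0 were red cell genes. Over all genes, 99% had an excess below 0.56 in the WT pair and below 0.85 in the IfitmF-/- pair. The erythroid genes differed in the IfitmF-/- pair by -0.25 to 0.11, and the platelet genes in the WT pair by -0.70 to -0.11. Over the red cell lists the median difference was 0.44 in the WT pair and -0.01 in the IfitmF-/- pair. Over the platelet lists it was -0.22 and 0.66. Not all red cell genes were higher on WT replicate 2. Alas2 differed by -0.87 in the WT pair, and Bpgm by -0.71 in the WT pair and 0.70 in the IfitmF-/- pair.

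**Figure D4:**
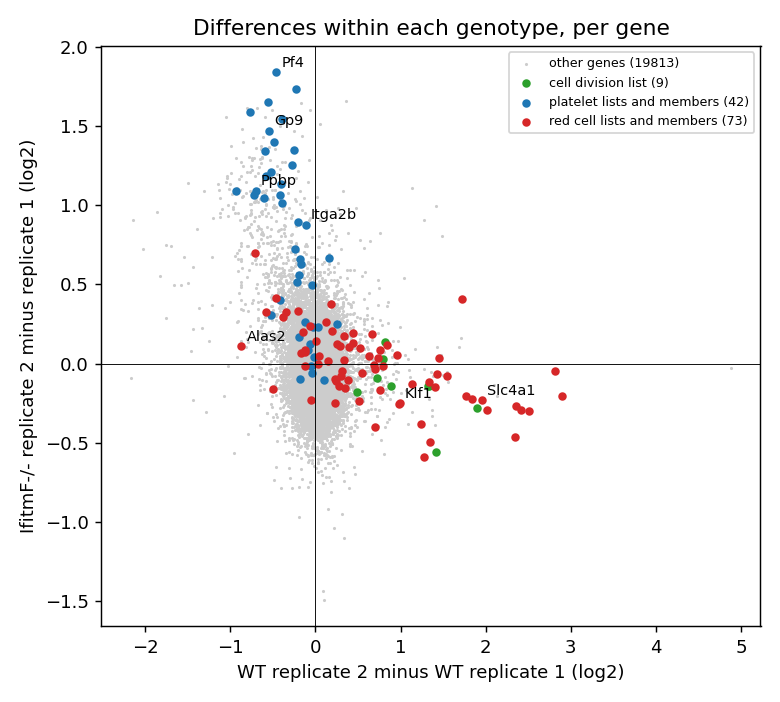
Difference between the WT arrays (x axis, replicate 2 minus replicate 1, log2) against that between the IfitmF-/- arrays (y axis, replicate 2 minus replicate 1, log2) for each of 19937 genes. Red cell genes (red) spread to the right with Slc4a1 at 1.95, platelet genes (blue) spread upward with Pf4 at 1.84, and Alas2 lies to the left at -0.87.

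Genes were also ranked by how close their profile over the 4 arrays, centered on its mean, lay to the mean profile of the measured members, among genes of sufficient level and range. Nearest to the platelet profile, at root mean square distances of 0.063 to 0.11 log2 units, were Hacd4, Mpig6b, Clec1b, Thbs1, Fhl1, Alox12, Nrgn, S100a1, Gng11 and Parvb, of which 6 are on the platelet lists. Thbs1, the thrombospondin gene, was at 7.93 and 7.45 in WT and 8.19 and 9.59 in IfitmF-/- cells. Nearest to the erythroid profile, at 0.034 to 0.067, were the histone genes H2bc1, H4f16 and H2ac15, Ccne1, Nusap1, Cd24a, Prdx2, Pigq, Ubac1 and 1300017J02Rik, of which 1 (Prdx2) is on the red cell lists. Prdx2, which encodes an antioxidant enzyme abundant in red cells, was at 10.35 and 11.11 in WT and 11.54 and 11.37 in IfitmF-/- cells. The erythroid profile averages 3 genes of which Alas2 runs the other way. Without Alas2, a choice made after its values were seen, the 10 nearest genes were all different, and they began with Ccna2, Anln, H1f1 and E2f8 and held 3 red cell genes, Ank1, Hbq1b and Car2. With 4 arrays the ranking is a description.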

How the data were processed

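Total RNA of splenic CD4 T cells was measured on 4 Affymetrix Mouse Gene 1.0 ST arrays. The authors deposited linear intensity values after RMA, that is background correction, quantile normalization and summary per probe set. Their processing notes name RMA and affy, whose versions are not given in the sources used here. This normalization makes all differences relative to the whole of each array. Levels of different probe sets are not comparable as amounts of RNA. Where a gene is called dim, or a share of dimmer probe sets is given, this describes its place in the intensity range of the array. The number of arrays limits the precision.

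Intensities were taken to log2. All 34760 probe sets were tested in limma 3.58.1 (R 4.3.3; lmFit and eBayes, IfitmF-/- minus WT, no covariate, 2 residual and 2.39 prior degrees of freedom) and p-values were adjusted across the whole array by the Benjamini-Hochberg method, with 0.05 as the threshold for a call. An exact permutation test of 2 against 2 arrays cannot give a p below 0.333 and was not used. In the platform annotation 21640 probe sets carry 1 gene, 1321 carry several and 11799 carry no gene. Symbols were updated by gene ID in GRCm38.p6 (21553 found), and the probe set of highest mean represented a gene. Lists comprised 8 pathway and 9 marker lists. The genes named were the members, the 3 of smallest p per pathway list, the 2 of highest mean from the marker lists that moved with a result, and the 10 nearest in profile among genes that reach a log2 level of 6.26, the array median, in at least 1 sample and with at least 0.5 times the range of the profile. The members and lists were chosen with earlier results of these data known. The limma test was checked on 34760 simulated probe sets with 50 changes of each size. It recovered 1 change of 0.5, 44 of 1, 47 of 2 and 50 of 3 log2 units, with 21 false calls. The false calls were a larger share of all calls than 0.05. Noise was drawn independently for each probe set, and the changed probe sets were picked at random. The recovery therefore does not describe genes that differ as widely between replicates as the members do. No source ties arrays of the same replicate number to each other.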

Additional observations from a re-analysis of the deposited data

How the results depend on the processing

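All 7 genes remained uncalled in limma with trend and robust moderation, renewed quantile normalization, median centring, without dim probe sets, on probe sets of 1 gene, with the replicate number as a block, and without each array, as well as in the methods' t-test. Other probe set choices gave the same values, since each gene has 1 probe set. Alas2, at -0.0035, changed sign with renewed quantile normalization (0.0182), median centring (0.0393), without WT replicate 1 (0.43) and without IfitmF-/- replicate 1 (0.05), with a range over the arrays left out of -0.44 to 0.43. Leaving out 1 array gave mean differences of 0.49 to 1.18 for the erythroid and 0.38 to 1.70 for the platelet genes, against 0.83 and 1.04. The 2930 probe sets called over the array became 403 when a fold above 2 and a spread of 250 intensity units or more were also required, 0 without any 1 array (6062 to 9107 at an unadjusted p under 0.05), 4 by the methods' t-test after adjustment and 6811 before it. With the replicate block, 0 probe sets were called; replicate deviations of the genotypes correlated at -0.12, and a crossed block, added after the data were seen, called 975 probe sets, 0 erythroid and 1 platelet gene. The 7 list genes called were lost without any 1 array, a setting that called no probe set. The median difference of the heme list went from 0.43 to 0.20 and that of late maturation from 0.56 to 0.35 without WT replicate 1. By Pearson correlation, 3 of the 10 genes nearest to the erythroid and 6 of 10 nearest to the platelet profile were shared. Between the rankings by distance with and without Alas2, 0 of 10 were shared. At an unadjusted p under 0.05, 1 platelet gene passed. With 2 arrays per genotype, the number of arrays limits the precision.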

Other observations

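The adult globin genes could not be read separately, because 4 probe sets name several of them together. The 2 probe sets that name both adult α-globin genes were at 14.25 and 14.16 and at 14.03 and 13.88 on the WT arrays, and at 14.08 and 14.07 and at 13.83 and 13.90 on the IfitmF-/- arrays. Of the 2 that name 4 adult β-globin genes, the brighter was at 14.05 and 13.89 in WT and at 14.02 and 14.07 in IfitmF-/- cells. The dimmer was at 12.17 and 11.68 in WT and at 12.17 and 12.42 in IfitmF-/- cells. None was called (adjusted p = 0.327 to 0.654). WT replicate 1 was above WT replicate 2 for all 4 probe sets. Of the globin genes with probe sets of their own, Hba-x (6.39 and 6.27 in WT) and Hbb-y (4.46 and 4.26) had the same order. Hbq1b (5.71 and 6.95), Hbq1a (4.72 and 4.87) and Hbb-bh1 (4.39 and 4.44) were higher on WT replicate 2. Among these genes only Hbq1b differed by more than 0.20 between the WT arrays. No test was made of these differences between arrays.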
